A study of Homo sapiens with 4 samples.

Results

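RKN is an established human leiomyosarcoma line, 1 of 4 such lines in the series, and it is described here against the other 3, SKLMS1, SKN and SKUT1. Leiomyosarcomas are cancers of smooth muscle type. Every line was an untreated culture in DMEM that held fetal bovine serum, L-glutamine and antibiotics, and gave 1 library of poly(A) RNA read single-end on an Illumina NextSeq instrument. The labels name no clone, donor, passage or genotype for any line and give no tissue of origin beyond the tumour type. All genes with an FPKM (a fragment count scaled by transcript length and library size) of 1 or more in at least 1 line were taken, which kept 13713 of 23577 genes. Levels are FPKM throughout. With 1 library per line there is no replicate spread, so every difference below is a size without a test, and it compares 4 libraries.

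Differences are given on the scale log2(FPKM + 1), as RKN minus the mean of the other 3 lines unless a sentence says otherwise, and this scale understates the change of low genes. A difference of 1 on that scale is called 2-fold. A value of 0 is reported as listed, since RPS28, a ribosomal protein gene, was also listed at 0 in SKUT1, and no ratio against a 0 is printed, while counts of 2-fold and 4-fold genes on the log2(FPKM + 1) scale include genes listed at 0. In bulk RNA, a smaller share of cells that make a transcript and less of it per cell cannot be told apart.

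Of the 13713 genes, 1585 (11.6%) were at least 2-fold above the mean of the other lines and 2277 (16.6%) at least 2-fold below it. RKN was above all 3 other lines for 3892 genes (28.4%) and below all 3 for 3657 (26.7%). With both conditions together, 1398 genes (10.2%) were higher and 1780 (13%) lower. A 4-fold gap to the nearest line was found for 188 genes above (1.37%) and 226 below (1.65%), of which 26 were listed at 0 in RKN. The median difference over all genes was -0.04. Rescaling the columns to TPM (the same total in each line) moved that median by 0.28 and quantile normalization by 0.11, so list medians are read against the median of all genes. Under TPM 2807 genes were 2-fold above and 2129 below, so there the higher genes were the larger group. Of 55 gene lists described here, 33 had a median of at least 0.5 in either direction, and all 33 stayed on the same side of all genes under TPM, median-of-ratios and quantile scaling. From the steps of the lowest values, RKN was read 1.10 times as deeply as SKLMS1, 1.33 times as SKN and 1.38 times as SKUT1.

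The 4 marker genes named for RKN each had 1 high line. ALDH1A1, an enzyme that makes retinoic acid, stood at 1108 FPKM in RKN against 0.765, 0.0546 and 0.132 in SKLMS1, SKN and SKUT1. AXIN2, a scaffold of the beta-catenin destruction complex that WNT signalling itself induces, stood at 59.99 FPKM in RKN, with SKLMS1 at 0.741, SKN at 1.48 and SKUT1 at 1.41. RGS5, which shortens signalling by G proteins and marks pericytes, stood at 127 FPKM in RKN against 0.813, 2.18 and 3.48 in SKLMS1, SKN and SKUT1. In all 3 genes RKN was the one high line and the others were low. CDKN2A, which encodes the p16INK4a and p14ARF inhibitors of growth, stood at 326 FPKM in RKN, with SKLMS1 at 0.549, SKN at 0.125 and SKUT1 at 16.4, so SKUT1 was second and still far below RKN.

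**Figure D1:**
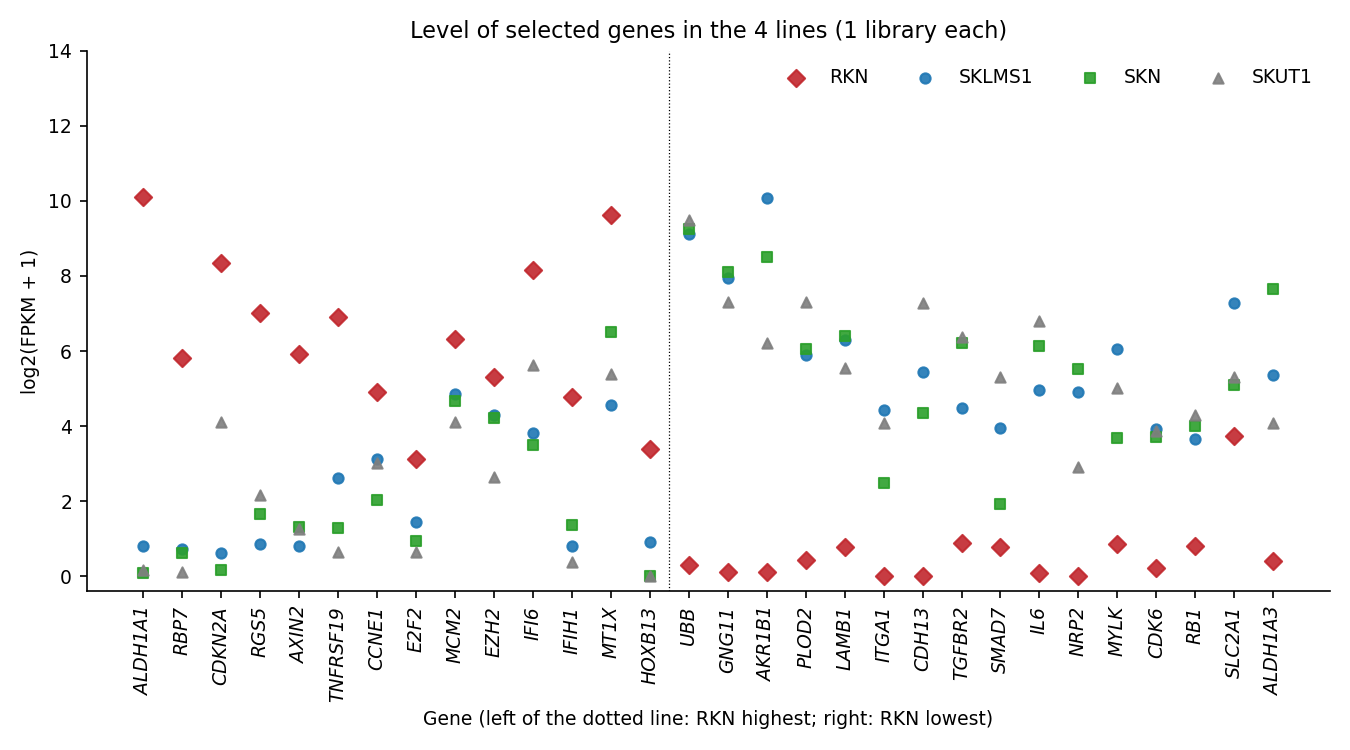
Level of 30 genes in the 4 lines as log2(FPKM + 1), 1 point per library, with genes where RKN was the highest line left of the dotted line and those where it was the lowest to the right. The red diamonds of RKN lie apart from the other 3 symbols for nearly every gene, and from UBB to RB1 most of them lie below 1 on that scale.

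The label of a smooth muscle tumour line was checked against marker lists. Of 41 smooth muscle genes, 31 reached an FPKM of 1 in RKN, against 36, 30 and 39 in SKLMS1, SKN and SKUT1, and their summed FPKM was 2398 in RKN against 8146, 2867 and 17891 in SKLMS1, SKN and SKUT1. MYH11 and DES, the smooth muscle myosin heavy chain and desmin, are among the defining genes of mature smooth muscle. MYH11 was 0.268 FPKM in RKN against 0.415, 0.216 and 1.15 in SKLMS1, SKN and SKUT1, near the floor in every line. DES was 1.102 FPKM in RKN, with SKLMS1 at 0.191, SKN at 0.347 and SKUT1 at 0.66, low in every line too. Of the other cell types, 7 of 15 immune markers, PTPRC (CD45) among them, were listed at 0 in RKN, and each other line also had 7 at 0. The 15 summed to an FPKM of 6.68 in RKN against 28.7, 19 and 79.1 in SKLMS1, SKN and SKUT1. The 13 endothelial markers summed to 8.39 and the 15 epithelial markers to 80.3, while the 12 fibroblast markers summed to 225, between 4.13 in SKN and 9721 in SKUT1. The 17 neural and glial markers summed to 241 in RKN against 162, 117 and 172 in SKLMS1, SKN and SKUT1, the highest sum of the lines. Of the 17, 5 reached an FPKM of 1 in RKN, against 3, 4 and 4 in SKLMS1, SKN and SKUT1. SOX10, SOX2 and OLIG2 were among the 4 listed at 0 in RKN. Of the 7 compared, 3 were 2-fold higher (42.9%, against 11.6% of all genes) and 2 lower (28.6%, against 16.6%).

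Retinoic acid is made from retinol in 2 oxidation steps, is carried by small binding proteins, acts through nuclear receptors and is broken down by CYP26 enzymes. The marker ALDH1A1 catalyses the last step of its synthesis, and the lines differed in which gene for that step was high. ALDH1A3, the sister enzyme, was 0.315 FPKM in RKN against 40.2, 200.4 and 16.04 in SKLMS1, SKN and SKUT1, lowest in RKN with a difference of -5.31. The 2 genes ran opposite: RKN had ALDH1A1 with little ALDH1A3, and the other 3 lines the reverse. RDH10, which makes the retinal that both enzymes oxidise, was 1.63 FPKM in RKN, with SKLMS1 at 3.41, SKN at 7.27 and SKUT1 at 26.2, also lowest in RKN. Of 15 genes for making and storing retinoic acid, 3 were 2-fold higher (20%, against 11.6% of all genes) and 3 lower (20%, against 16.6%). Their median was -0.48, or -0.13 without SKUT1, so most of the list did not follow ALDH1A1.

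Of 7 genes for binding, uptake and breakdown, 4 were 2-fold higher in RKN (57.1%, against 11.6%) and 1 lower (14.3%, against 16.6%). Their median was 1.21. RBP7, a retinol binding protein, led with 55.04 FPKM in RKN against 0.651, 0.527 and 0.0911 in SKLMS1, SKN and SKUT1. STRA6, the membrane receptor that takes up retinol, was 0.228 FPKM in RKN against 23.9, 55.3 and 0.213 in SKLMS1, SKN and SKUT1, so RKN and SKUT1 were both near the floor. Among the receptors, RARB, itself a classical retinoic acid target, was 4.28 FPKM in RKN, with SKLMS1 at 0.0631, SKN at 0.389 and SKUT1 at 1.897, highest in RKN. RARA, the widely expressed receptor, was 4.18 FPKM in RKN against 15.9, 9.33 and 15.3 in SKLMS1, SKN and SKUT1, lowest in RKN. The homeobox genes MEIS1 and MEIS2, partners of HOX proteins that retinoic acid can induce, were both highest in RKN. MEIS1 was 9.77 FPKM in RKN, with SKLMS1 at 0.61, SKN at 3.33 and SKUT1 at 2.95. MEIS2 was 21.5 FPKM in RKN against 4.86, 8.45 and 9.28 in SKLMS1, SKN and SKUT1. RARRES2, another gene named for its response to retinoids, was 0.111 FPKM in RKN, with SKLMS1 at 44.6, SKN at 0.0737 and SKUT1 at 2.06, with SKLMS1 alone high. Over all 11 receptors and targets, 3 were 2-fold higher (27.3%, against 11.6%) and 4 lower (36.4%, against 16.6%).

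WNT ligands bind Frizzled and LRP receptors, which stops the destruction complex from degrading beta-catenin, and beta-catenin with TCF factors then switches on target genes, among them brakes on the pathway. AXIN2 had company in TNFRSF19 (TROY), a TNF receptor family member listed as a WNT target, at 119.9 FPKM in RKN against 5.19, 1.45 and 0.554 in SKLMS1, SKN and SKUT1. They were the only 2 of 13 feedback targets that were 2-fold higher in RKN (15.4%, against 11.6% of all genes). Of the rest, 4 were lower (30.8%, against 16.6%). The median of -0.40 was -0.10 without SKLMS1 and -0.06 without SKUT1. BAMBI, a decoy receptor of the TGF-beta family, was 0.742 FPKM in RKN, with SKLMS1 at 24.8, SKN at 0.363 and SKUT1 at 33.8, low in RKN and SKN. PRICKLE1, a component of planar polarity signalling, was 0.0366 FPKM in RKN against 3.28, 3.67 and 5.45 in SKLMS1, SKN and SKUT1, the lowest of the lines. DKK1, a secreted brake on WNT, was 4.95 FPKM in RKN, with SKLMS1 at 5.62, SKN at 9.92 and SKUT1 at 517, with SKUT1 alone high. RNF43, which removes Frizzled receptors from the membrane, was near the floor in RKN at 0.0136 FPKM. Its relative ZNRF3 was 5.03 FPKM in RKN against 4.23, 1.897 and 1.82 in SKLMS1, SKN and SKUT1, the highest of the lines. LGR5, a stem cell gene and WNT target, was listed at 0 in RKN and reached 3.89 FPKM in SKUT1 only. The high AXIN2 of RKN was therefore not matched by most other genes of its list.

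Upstream, WNT10B was the one ligand of 9 that was 2-fold higher in RKN, at 2.56 FPKM in RKN, with SKLMS1 at 0.6, SKN at 0.0546 and SKUT1 at 0.453. WNT5A, which mostly signals without beta-catenin, was 0.0771 FPKM in RKN against 26.2, 14.2 and 22.7 in SKLMS1, SKN and SKUT1, and was lowest in RKN by a wide gap. WNT7B was 0.208 FPKM in RKN, with SKLMS1 at 9.62, SKN at 14.2 and SKUT1 at 0.0661, low in RKN and SKUT1. Frizzled receptors had a low median, but RKN was the lowest line for only 3 of the 9 FZD genes compared and the highest for 2. By the 2-fold rule 5 were lower and 1, FZD9, was higher, where 16.6% and 11.6% of all genes were. The median was -1.53. That made FZD the fourth lowest of 349 families of at least 6 genes that share a symbol stem, although its median was -0.58 without SKUT1 and -2.35 without SKN. FZD6 was 0.367 FPKM in RKN against 36.2, 10.2 and 13.2 in SKLMS1, SKN and SKUT1. FZD1 was 0.85 FPKM in RKN, with SKLMS1 at 4.07, SKN at 8.53 and SKUT1 at 22.2. FZD8 was 0.0397 FPKM in RKN against 1.62, 28.8 and 13.7 in SKLMS1, SKN and SKUT1. RKN was the lowest line for these 3 receptors. FZD9 was 4.49 FPKM in RKN, with SKLMS1 at 0.228, SKN at 0.258 and SKUT1 at 0.42, the highest of the lines. The 18 genes of the destruction complex and the nuclear machinery showed no 2-fold difference in either direction. RKN was still the lowest line for 10 of them (55.6%, against 26.7% of all genes), with a median of -0.37, or -0.19 without SKUT1. CTNNB1, the beta-catenin gene itself, was 71.1 FPKM in RKN against 94.2, 113 and 114 in SKLMS1, SKN and SKUT1, lowest in RKN by less than 2-fold. SFRP1, which binds WNT ligands outside the cell, was 11.96 FPKM in RKN, with SKLMS1 at 0, SKN at 12.4 and SKUT1 at 10.1, at a like level in 3 lines and listed at 0 in SKLMS1. DKK3, a secreted protein of the Dickkopf family, was 16.5 FPKM in RKN against 109, 238 and 65.5 in SKLMS1, SKN and SKUT1, lowest in RKN.

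RGS proteins speed up the GTPase step that turns off G protein alpha subunits, and beta and gamma subunits form the dimer that alpha subunits release. RGS5 was not followed by its family. Of 12 RGS genes 2 were 2-fold higher (16.7%, against 11.6% of all genes) and 4 were lower (33.3%, against 16.6%). The median was -0.12, near the -0.04 of all genes. RGS4, the close relative of RGS5, was 141 FPKM in RKN, with SKLMS1 at 0.137, SKN at 0.217 and SKUT1 at 337, so RKN and SKUT1 were both high and SKLMS1 and SKN were near the floor. RGS2 was 2.46 FPKM in RKN against 10.5, 8.57 and 5.32 in SKLMS1, SKN and SKUT1. RGS20 was 0.889 FPKM in RKN, with SKLMS1 at 7.19, SKN at 4.18 and SKUT1 at 2.07. Both were lowest in RKN. Among 14 beta and gamma subunits, the widest gap was for GNG11, at 0.0793 FPKM in RKN against 248, 273 and 157 in SKLMS1, SKN and SKUT1. GNG12 was 27.01 FPKM in RKN, with SKLMS1 at 103, SKN at 66.4 and SKUT1 at 199, lowest in RKN by less. GNG4 was 5.06 FPKM in RKN against 3.97, 1.59 and 0.0788 in SKLMS1, SKN and SKUT1, highest in RKN. GNG5 was 151 FPKM in RKN, with SKLMS1 at 188, SKN at 153 and SKUT1 at 155, much the same in the 4 lines. Of 12 alpha subunits, 4 were 2-fold lower (33.3%, against 16.6%) and GNAZ alone was 2-fold higher (8.33%, against 11.6%). GNAZ was 3.87 FPKM in RKN against 2.58, 0.813 and 0.299 in SKLMS1, SKN and SKUT1. GNAI1, an inhibitory subunit, was 0.723 FPKM in RKN, with SKLMS1 at 6.18, SKN at 5.51 and SKUT1 at 18.5, lowest in RKN. GNAS, the alpha subunit that activates adenylyl cyclase, was 429.5 FPKM in RKN against 939, 1470.1 and 835 in SKLMS1, SKN and SKUT1, also lowest in RKN.

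RGS5 is a marker of pericytes, the contractile cells on small vessels, and most other genes on the pericyte list were lower in RKN. Of 15 pericyte and mural genes compared, 3 were 2-fold higher in RKN (20%, against 11.6% of all genes) and 11 lower (73.3%, against 16.6%), with a median of -1.92, which became -0.69 without SKUT1. PDGFRB, the receptor that defines pericytes, was 1.597 FPKM in RKN, with SKLMS1 at 33.7, SKN at 0.00714 and SKUT1 at 70.7, with SKN lower still. MCAM (CD146), an adhesion molecule of vessel walls, was 1.99 FPKM in RKN against 46.6, 22.3 and 15.4 in SKLMS1, SKN and SKUT1, lowest in RKN. NOTCH3, a receptor of mural cells, was 1.197 FPKM in RKN, with SKLMS1 at 3.97, SKN at 0.065 and SKUT1 at 108, high in SKUT1 only. The defining markers KCNJ8 and ABCC9, which form a potassium channel of mural cells, were both listed at 0 in RKN. Zeros were not particular to RKN: of all 18 genes on the list 5 were at 0 in it, against 4, 3 and 0 in SKLMS1, SKN and SKUT1. HEYL, a Notch target, was 4.49 FPKM in RKN against 0, 0.0805 and 0.0835 in SKLMS1, SKN and SKUT1, highest in RKN. CSPG4 (NG2), a proteoglycan of pericytes, was 9.302 FPKM in RKN, with SKLMS1 at 0.557, SKN at 0.185 and SKUT1 at 16.1, high in RKN and SKUT1. The list summed to an FPKM of 149 in RKN against 130, 149 and 711 in SKLMS1, SKN and SKUT1, and RGS5 alone made up most of the sum of RKN.

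p16INK4a blocks CDK4 and CDK6, which otherwise phosphorylate the RB protein and release E2F factors to drive genes of the S phase. RKN combined a high CDKN2A with a low RB1, at 0.752 FPKM in RKN against 11.7, 15.2 and 18.8 in SKLMS1, SKN and SKUT1, and a low CDK6. CDK6 was 0.164 FPKM in RKN, with SKLMS1 at 14.2, SKN at 12.1 and SKUT1 at 13.7, with its 3 other values close together and a difference of -3.62. CDK4, its partner enzyme, was 147 FPKM in RKN against 133, 97.4 and 63.9 in SKLMS1, SKN and SKUT1, highest in RKN by a small margin. CDKN2B, which encodes p15INK4b next to CDKN2A, was 6.41 FPKM in RKN, with SKLMS1 at 0.00887, SKN at 0.0108 and SKUT1 at 4.04, highest in RKN with SKUT1 close behind. CDKN1A, the p21 inhibitor that p53 induces, was 5.92 FPKM in RKN against 9.94, 12.8 and 348 in SKLMS1, SKN and SKUT1, lowest in RKN with SKUT1 far above the rest. RBL1 and RBL2, the other pocket proteins, did not share the low level of RB1. RBL1 was 5.49 FPKM in RKN, with SKLMS1 at 6.51, SKN at 7.82 and SKUT1 at 5.44. RBL2 was 9.11 FPKM in RKN against 14.1, 11.7 and 17.3 in SKLMS1, SKN and SKUT1.

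Downstream, 7 of 10 G1 and S phase cyclins and kinases were highest in RKN (70%, against 28.4% of all genes), and the median of 0.80 was 0.45 without SKUT1. CCNE1, the cyclin that activates CDK2, was 28.99 FPKM in RKN, with SKLMS1 at 7.73, SKN at 3.07 and SKUT1 at 7.18, highest in RKN. CCND2 was 11.6 FPKM in RKN against 0.0103, 0.392 and 3.24 in SKLMS1, SKN and SKUT1, also highest in RKN. CCND1, a D cyclin that partners CDK4 and CDK6, was 39.8 FPKM in RKN, with SKLMS1 at 31.9, SKN at 111 and SKUT1 at 537, highest in SKUT1. CDC25A, the phosphatase that activates CDK2, was 18.003 FPKM in RKN against 4.45, 5.13 and 3.77 in SKLMS1, SKN and SKUT1, highest in RKN. Among the E2F factors, E2F2 was 7.72 FPKM in RKN, with SKLMS1 at 1.703, SKN at 0.931 and SKUT1 at 0.581. E2F5 was 7.49 FPKM in RKN against 2.74, 3.81 and 1.73 in SKLMS1, SKN and SKUT1. E2F8 was 4.86 FPKM in RKN, with SKLMS1 at 1.36, SKN at 3.43 and SKUT1 at 0.786. All 3 were highest in RKN, while E2F1 was 21.8 FPKM in RKN against 29.8, 18.8 and 12.2 in SKLMS1, SKN and SKUT1, second to SKLMS1. E2F2 and CDC25A are themselves known E2F targets.

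The stretches before the starts of E2F2 and CDC25A are shown because both genes were highest in RKN and each holds an E2F word near its start. They are the 250 bases before the start in RefSeq on GRCh38.p14, at chr1:23531234-23531483 on the minus strand and chr3:48188418-48188667 on the minus strand, with the word in capitals.
E2F2: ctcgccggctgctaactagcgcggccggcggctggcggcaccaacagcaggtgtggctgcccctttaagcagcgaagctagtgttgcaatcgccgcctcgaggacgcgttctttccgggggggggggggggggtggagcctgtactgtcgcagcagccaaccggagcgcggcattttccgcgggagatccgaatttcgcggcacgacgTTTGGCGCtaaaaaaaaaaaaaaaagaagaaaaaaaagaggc
CDC25A: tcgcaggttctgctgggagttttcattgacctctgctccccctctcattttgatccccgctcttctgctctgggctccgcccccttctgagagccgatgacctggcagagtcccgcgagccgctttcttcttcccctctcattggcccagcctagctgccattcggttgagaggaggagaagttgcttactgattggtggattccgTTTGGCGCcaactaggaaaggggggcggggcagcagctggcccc
The words searched were TTTCCCGC, TTTGGCGC and TTTCGCGC on both strands, in the 250 bases before and 50 after each start. Of all 35116 RefSeq windows of that length 2.74% held one, as did 5.52% of the 10616 compared genes with an entry.

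Genes of DNA replication were mostly highest in RKN. Of 36 genes, 29 were highest in RKN (80.6%, against 28.4%), 17 were 2-fold higher (47.2%, against 11.6%), none was 2-fold lower, and the median was 0.90. The median stayed between 0.63 and 1.21 when each comparison line was left out. MCM2, a subunit of the replicative helicase, was 78.99 FPKM in RKN, with SKLMS1 at 27.8, SKN at 24.7 and SKUT1 at 16.4. RRM2, the regulated subunit of ribonucleotide reductase, was 148 FPKM in RKN against 50.5, 58.998 and 34.1 in SKLMS1, SKN and SKUT1. TYMS, which makes thymidylate, was 282 FPKM in RKN, with SKLMS1 at 139, SKN at 161 and SKUT1 at 49.6. RKN was the highest line for all 3, as it was for 2 subunits of the origin recognition complex. ORC1 was 16.2 FPKM in RKN against 6.25, 7.64 and 2.67 in SKLMS1, SKN and SKUT1. ORC6 was 55.2 FPKM in RKN, with SKLMS1 at 26.5, SKN at 29.5 and SKUT1 at 10.8. The whole stem family MCM had a median of 1.11, the sixth highest of the 349 families, with 8 of 11 members highest in RKN. The E2F words were in the windows of 17 of 32 replication genes with an entry (53.1%), namely 7 of the 15 that were 2-fold higher (46.7%) and 10 of the 17 that were not (58.8%).

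For mitosis genes the comparison line mattered more. Of 36 genes, 12 were 2-fold higher (33.3%, against 11.6% of all genes) and none lower (against 16.6%). The median was 0.71, but 0.18 without SKUT1, where the median level of the list was lowest. PLK1, a mitotic kinase, was 116 FPKM in RKN against 75.5, 58.9 and 12.3 in SKLMS1, SKN and SKUT1. CDC20, an activator of the anaphase promoting complex, was 223 FPKM in RKN, with SKLMS1 at 169, SKN at 149 and SKUT1 at 18.4. Both were highest in RKN by less than 2-fold over SKLMS1. AURKA, another mitotic kinase, was 55.6 FPKM in RKN against 73.7, 115 and 12.7 in SKLMS1, SKN and SKUT1, with SKN the highest. Against SKLMS1 alone the median difference over the 36 genes was 0.09, and against SKN alone 0.20. For DNA replication the same medians were 0.54 and 0.75.

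Histone genes of the S phase clusters were the third highest stem family, with a median of 1.58. Of 33 compared, 19 were 2-fold higher in RKN (57.6%, against 11.6%) and 1 was 2-fold lower, where 16.6% of all genes were. RKN was the highest line for 22, where it was for 28.4% of all genes. HIST1H2BD was 84.1 FPKM in RKN, with SKLMS1 at 13.7, SKN at 3.89 and SKUT1 at 9.03. HIST1H2BK was 163 FPKM in RKN against 10.7, 19.98 and 73.7 in SKLMS1, SKN and SKUT1. HIST1H2AC was 67.2 FPKM in RKN, with SKLMS1 at 6.22, SKN at 5.11 and SKUT1 at 31.7. These 3 genes encode histones H2B and H2A and were highest in RKN. HIST1H2BH was the 1 lower gene, at 0.543 FPKM in RKN against 10.3, 18.4 and 0 in SKLMS1, SKN and SKUT1. These genes are near-identical copies, so the split of reads between them is uncertain, and their main transcripts lack a poly(A) tail, so a poly(A) library sees only part of them.

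Among chromatin regulators, genes of DNA methylation and the Polycomb complexes were higher. Of 18, 7 were 2-fold higher (38.9%, against 11.6% of all genes) and none was lower (against 16.6%). RKN was the highest line for 13 (72.2%, against 28.4%). The median was 0.81, or 0.49 without SKUT1. EZH2, the methyltransferase of Polycomb complex 2, was 38.4 FPKM in RKN, with SKLMS1 at 18.7, SKN at 17.7 and SKUT1 at 5.28. Its partner SUZ12 was 29.6 FPKM in RKN against 10.2, 15.1 and 11.3 in SKLMS1, SKN and SKUT1. UHRF1, which guides maintenance methylation, was 28.7 FPKM in RKN, with SKLMS1 at 11.8, SKN at 7.26 and SKUT1 at 5.32. These 3 were highest in RKN. DNMT3A, a de novo methyltransferase, was 8.29 FPKM in RKN against 2.29, 1.87 and 1.55 in SKLMS1, SKN and SKUT1. CBX2, a reader subunit, was 16.7 FPKM in RKN, with SKLMS1 at 7.37, SKN at 4.01 and SKUT1 at 0.101. RKN was the highest line for both. BMI1, a Polycomb complex 1 subunit, was 6.003 FPKM in RKN against 9.79, 6.36 and 15.01 in SKLMS1, SKN and SKUT1, lowest in RKN. Of 20 SWI/SNF genes, 4 were 2-fold higher and 2 lower, where 11.6% and 16.6% of all genes were. Their median was 0.42. SMARCC2, a core subunit, was 37.8 FPKM in RKN, with SKLMS1 at 17.3, SKN at 12.7 and SKUT1 at 16.1, highest in RKN. SMARCA2, an ATPase of the complex, was 6.05 FPKM in RKN against 11.7, 13.3 and 24.6 in SKLMS1, SKN and SKUT1, lowest in RKN. DPF3, a subunit of heart and muscle complexes, was 0.129 FPKM in RKN, with SKLMS1 at 3.31, SKN at 19.7 and SKUT1 at 0.297, high in SKN.

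C2H2 zinc finger genes named ZNF, many of them repressors that carry a KRAB domain, were the largest list compared. Of 455 compared, 283 were highest in RKN (62.2%, against 28.4%), 46 were lowest (10.1%, against 26.7%), 90 were 2-fold higher (19.8%, against 11.6%) and 15 lower (3.30%, against 16.6%). The median was 0.48, and it stayed between 0.45 and 0.51 when each line was left out. The median level on the log2 scale was 2.51 in RKN against 2.01, 1.91 and 1.85 in SKLMS1, SKN and SKUT1, so the other lines lay close together. On the log2(FPKM + 1) scale the differences were small and many, and no ZNF gene lay 4-fold outside the other lines in either direction. That scale understates the change of low genes, and in plain FPKM some of the members below lay further apart.

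Single members of the ZNF family gave the range. ZNF43 was 15.6 FPKM in RKN against 3.64, 0.889 and 1.601 in SKLMS1, SKN and SKUT1. ZNF711 was 5.12 FPKM in RKN, with SKLMS1 at 0.925, SKN at 0.00993 and SKUT1 at 0.0103. ZNF300 was 17.7 FPKM in RKN against 9.84, 0.0651 and 1.71 in SKLMS1, SKN and SKUT1. These 3 were highest in RKN. At the other end, with RKN lowest, ZNF626 was 0.0101 FPKM in RKN, with SKLMS1 at 4.13, SKN at 0.782 and SKUT1 at 4.79. ZNF521 was 0.00621 FPKM in RKN against 0.0068, 2.79 and 9.95 in SKLMS1, SKN and SKUT1. ZNF469 was 0.255 FPKM in RKN, with SKLMS1 at 3.904, SKN at 1.11 and SKUT1 at 8.24. ZNF genes share repeats of the finger domain, so reads can be split between copies. Runs of neighbouring ZNF genes were higher together. ZNF253, ZNF93, ZNF682 and ZNF90 formed a run of 4 compared genes with a median of 1.74, and ZNF680, ZNF107, ZNF138 and ZNF273 another with a median of 1.69.

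**Figure D2:**
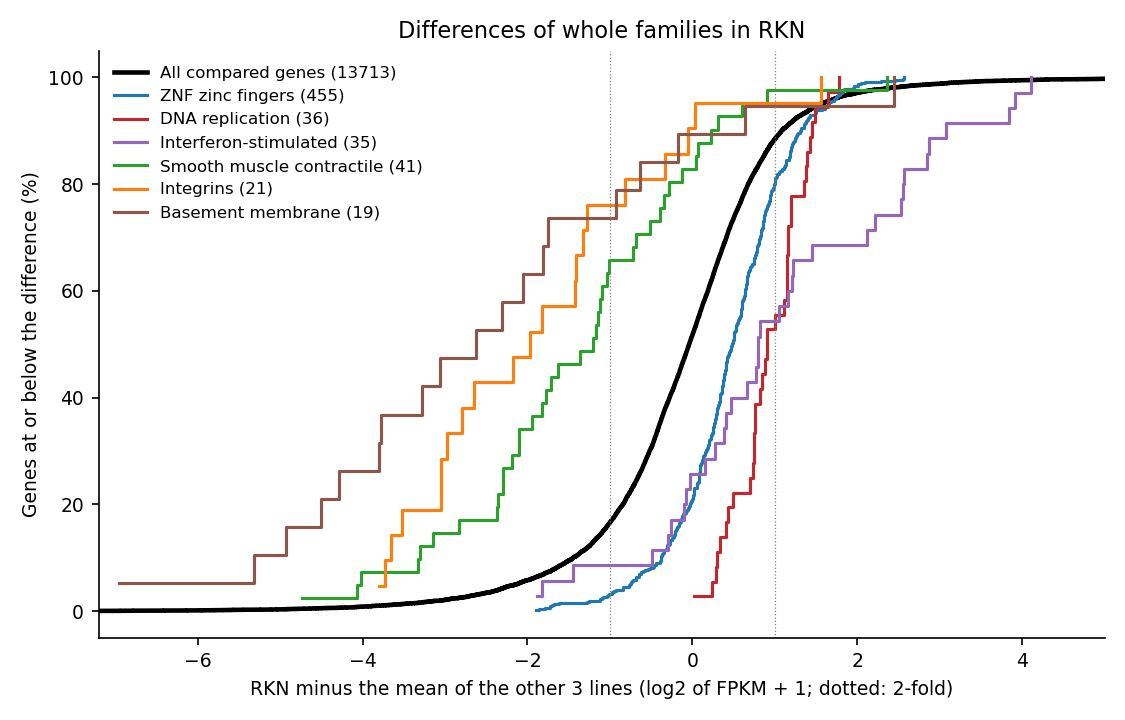
Share of genes (%) at or below a given difference of RKN from the mean of the other 3 lines (log2 of FPKM + 1) for all 13713 compared genes and 6 lists, with dotted lines at 2-fold. The ZNF curve runs parallel to that of all genes and to its right, the replication curve starts near 0, and the integrin, basement membrane and smooth muscle curves lie far to the left.

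Interferons switch on antiviral genes through a shared promoter element, the interferon-stimulated response element. Of 35 interferon-stimulated genes, 16 were 2-fold higher in RKN (45.7%, against 11.6%) and 3 lower (8.57%, against 16.6%). RKN was the highest line for 15 (42.9%, against 28.4%). The median was 0.79, which was 0.73 to 1.15 with a line left out. IFIH1, the MDA5 sensor of double-stranded RNA, was 26.3 FPKM in RKN against 0.745, 1.59 and 0.313 in SKLMS1, SKN and SKUT1, a difference of 3.91. IFI6 was 284 FPKM in RKN, with SKLMS1 at 12.98, SKN at 10.4 and SKUT1 at 48.8. OAS1, an activator of RNase L, was 13.5 FPKM in RKN against 0.205, 1.37 and 0.813 in SKLMS1, SKN and SKUT1. All 3 were highest in RKN, as was MX1, an antiviral GTPase, at 11.6 FPKM in RKN, with SKLMS1 at 0.514, SKN at 1.22 and SKUT1 at 0.514. IFITM1, a membrane protein that blocks virus entry, was 149 FPKM in RKN against 4.13, 2.62 and 34.6 in SKLMS1, SKN and SKUT1. ISG15, a ubiquitin-like modifier, was 321 FPKM in RKN, with SKLMS1 at 38.3, SKN at 57.9 and SKUT1 at 69.8. Both were again highest in RKN. Of the 35 genes, 6 lay 4-fold above the highest other line (1.37% of all genes did).

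Not every member was higher. IFI27, a common interferon target, was 51.3 FPKM in RKN against 246, 159.6 and 71.2 in SKLMS1, SKN and SKUT1, with RKN the lowest line. GBP2, a guanylate-binding protein, was 0.583 FPKM in RKN against 8.86, 2.47 and 4.19 in SKLMS1, SKN and SKUT1, lowest in RKN. The neighbours OAS1, OAS2 and OAS3 were all highest in RKN. OAS2 was 11.001 FPKM in RKN, with SKLMS1 at 0.141, SKN at 5.34 and SKUT1 at 1.41. OAS3 was 25.1 FPKM in RKN against 3.004, 14.6 and 0.356 in SKLMS1, SKN and SKUT1. The APOBEC3 cytidine deaminases formed a run of 5 higher neighbours from APOBEC3B to APOBEC3G, with a median of 1.55. APOBEC3B was 31.6 FPKM in RKN, with SKLMS1 at 0.103, SKN at 21.2 and SKUT1 at 2.99. APOBEC3C was 60.3 FPKM in RKN against 32.3, 27.3 and 23.7 in SKLMS1, SKN and SKUT1. APOBEC3 genes are similar copies, so reads can be shared among them.

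The promoters of IFI6, IFIH1 and IFI27 are shown because they carry the same element while the genes differed in direction, IFI6 and IFIH1 being highest and IFI27 lowest in RKN. They are RefSeq sequences of GRCh38.p14 at chr1:27672193-27672442 on the minus strand, chr2:162318685-162318934 on the minus strand and chr14:94110565-94110814 on the plus strand, each 250 bases before the start, with the word searched, GAAA, any 2 bases and GAAA again on either strand, in capitals.
IFI6: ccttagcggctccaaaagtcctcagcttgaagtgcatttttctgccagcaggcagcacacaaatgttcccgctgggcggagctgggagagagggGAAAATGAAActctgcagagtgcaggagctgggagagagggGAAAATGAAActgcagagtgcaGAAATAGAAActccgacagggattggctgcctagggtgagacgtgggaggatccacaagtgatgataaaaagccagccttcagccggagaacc
IFIH1: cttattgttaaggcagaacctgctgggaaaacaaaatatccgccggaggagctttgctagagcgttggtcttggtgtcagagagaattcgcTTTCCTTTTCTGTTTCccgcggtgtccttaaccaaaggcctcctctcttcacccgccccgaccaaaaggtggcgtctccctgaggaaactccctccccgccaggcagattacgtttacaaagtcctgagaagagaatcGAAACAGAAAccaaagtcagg
IFI27: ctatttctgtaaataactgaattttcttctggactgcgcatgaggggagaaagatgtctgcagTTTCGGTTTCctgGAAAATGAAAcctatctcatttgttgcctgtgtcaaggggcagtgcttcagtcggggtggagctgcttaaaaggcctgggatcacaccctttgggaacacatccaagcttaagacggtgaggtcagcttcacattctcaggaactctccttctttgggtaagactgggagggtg
The word occurred 3 times in IFI6, 3 times in IFIH1, where 2 of the matches overlap, and 2 times in IFI27. It was in 3.57% of all RefSeq windows of 300 bases. A match in these letters describes the reference only.

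Cytokines were mixed. Of 14 interleukins and colony stimulating factors, 10 were 2-fold lower (71.4%, against 16.6%) with a median of -2.04. IL18 alone was 2-fold higher, at 32.8 FPKM in RKN, with SKLMS1 at 0.734, SKN at 4.37 and SKUT1 at 0.264. IL6, an inflammatory cytokine, was 0.0606 FPKM in RKN against 30.5, 68.9 and 111 in SKLMS1, SKN and SKUT1. IL11, of the same family, was 0.205 FPKM in RKN, with SKLMS1 at 24.2, SKN at 38.4 and SKUT1 at 7.08. LIF, also of that family, was 1.46 FPKM in RKN against 18.4, 83.8 and 2.41 in SKLMS1, SKN and SKUT1. RKN was the lowest line for these 3. IL1B and CSF3 were high in SKN only, at 1089.8 FPKM and 373 FPKM, and near the floor in RKN at 0.0459 FPKM and 0.0381 FPKM. Of 13 chemokines, 6 were 2-fold higher (46.2%, against 11.6%), 2 were lower (15.4%, against 16.6%) and 2 were highest in RKN. Their median was -0.29, and 1.14 without SKN. CXCL1, which attracts neutrophils, was 43.8 FPKM in RKN, with SKLMS1 at 0.775, SKN at 641 and SKUT1 at 1.65, so SKN exceeded RKN. CXCL12, the ligand of CXCR4, was 0 FPKM in RKN against 32.8, 0.386 and 214 in SKLMS1, SKN and SKUT1, listed at 0 in RKN. The CXCL stem family had a median of 1.63, which was 0.12 without SKLMS1 and 0.41 without SKUT1.

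Integrins are pairs of alpha and beta chains that hold cells to the matrix, and most of them were low in RKN. Of 21 compared, 16 were 2-fold lower (76.2%, against 16.6%), 14 were lowest in RKN (66.7%, against 26.7%), and the median was -1.97. The stem ITGA was the lowest of the 349 families, with a median of -2.81 and 7 of 10 members lowest. ITGB1, the shared beta chain, was 129 FPKM in RKN, with SKLMS1 at 442, SKN at 237 and SKUT1 at 1240.2. ITGA5, which pairs with it as the fibronectin receptor, was 12.6 FPKM in RKN against 52.2, 93.9 and 280.03 in SKLMS1, SKN and SKUT1. ITGAV was 6.75 FPKM in RKN, with SKLMS1 at 45.4, SKN at 22.3 and SKUT1 at 143, lowest in RKN like both. ITGA1, a collagen receptor chain, was 0.00645 FPKM in RKN against 20.4, 4.64 and 15.99 in SKLMS1, SKN and SKUT1. ITGB3, the partner of ITGAV, was 0.202 FPKM in RKN, with SKLMS1 at 25.6, SKN at 23.8 and SKUT1 at 5.15. RKN lay below every other line in these 5 genes. The exception was ITGA7, a laminin receptor chain of muscle, at 7.21 FPKM in RKN against 0.16, 0.103 and 15.7 in SKLMS1, SKN and SKUT1, where RKN and SKUT1 were high.

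Basement membranes are sheets of laminin trimers and type IV collagen joined by nidogen and perlecan, and smooth muscle cells are wrapped in one. Of 19 genes, 14 were 2-fold lower in RKN (73.7%, against 16.6%), and the median was -2.63. The chains LAMA5, LAMB1 and LAMC1, which join into a widespread laminin, were all 2-fold lower. LAMA5 was 1.92 FPKM in RKN, with SKLMS1 at 19.6, SKN at 55.2 and SKUT1 at 1.63, with SKUT1 as low. LAMB1 was 0.709 FPKM in RKN against 77.9, 83.2 and 46.2 in SKLMS1, SKN and SKUT1, a difference of -5.31. LAMC1 was 13.4 FPKM in RKN, with SKLMS1 at 52.9, SKN at 92.3 and SKUT1 at 541. COL4A1 and COL4A2, which share a promoter region head to head, were lowest in RKN together. COL4A1 was 2.98 FPKM in RKN against 83.4, 29.02 and 706 in SKLMS1, SKN and SKUT1. COL4A2 was 5.6996 FPKM in RKN, with SKLMS1 at 98.7, SKN at 56.7 and SKUT1 at 607. The 2 nidogens were not alike. NID2 was 0.0979 FPKM in RKN against 22.1, 3.18 and 102 in SKLMS1, SKN and SKUT1, lowest in RKN. NID1, its paralogue, was 40.7 FPKM in RKN, with SKLMS1 at 14.2, SKN at 10.6 and SKUT1 at 109, second in RKN. LAMC3, a minor laminin chain, was the single gene 2-fold higher, at 4.55 FPKM in RKN against 0.044, 0.00668 and 0.00693 in SKLMS1, SKN and SKUT1.

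Collagen chains are hydroxylated, folded and cross-linked before they make fibrils. Of 27 genes for those steps, 17 were 2-fold lower in RKN (63%, against 16.6%), none was higher and 14 were the lowest line (51.9%, against 26.7%), with a median of -1.58, which was -0.38 without SKUT1. PLOD2, the lysyl hydroxylase for cross-links, was 0.346 FPKM in RKN, with SKLMS1 at 58.2, SKN at 65.4 and SKUT1 at 157, a difference of -5.99. PLOD1 was 83.3 FPKM in RKN against 137, 60.6 and 345 in SKLMS1, SKN and SKUT1. PLOD3 was 26.6 FPKM in RKN, with SKLMS1 at 36.5, SKN at 33.5 and SKUT1 at 90.2. Of the family, PLOD2 alone was far below the other lines. LOX and LOXL2, which oxidise lysines for cross-linking, were both lowest in RKN. LOX was 0.375 FPKM in RKN against 7.28, 10.7 and 953 in SKLMS1, SKN and SKUT1. LOXL2 was 14.99 FPKM in RKN, with SKLMS1 at 621, SKN at 155 and SKUT1 at 643. SERPINH1, the collagen chaperone, was 245 FPKM in RKN against 97.5, 133 and 661 in SKLMS1, SKN and SKUT1, above SKLMS1 and SKN.

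Cadherins join cells to each other. Of 10 compared, 5 were 2-fold lower (50%, against 16.6%) and 2 were higher (20%, against 11.6%). RKN was the lowest line for 7 (70%, against 26.7%). CDH2, the N-cadherin of mesenchymal cells, was 0.825 FPKM in RKN, with SKLMS1 at 62.96, SKN at 20.8 and SKUT1 at 128. CDH11 was 0.181 FPKM in RKN against 3.203, 0.869 and 188 in SKLMS1, SKN and SKUT1. CDH13 was 0 FPKM in RKN, with SKLMS1 at 42.3, SKN at 19.6 and SKUT1 at 155. All 3 were lowest in RKN. CDH1, the E-cadherin of epithelia, was 0.045 FPKM in RKN against 0.936, 0.0683 and 1.195 in SKLMS1, SKN and SKUT1, low in every line. CDH24 was 10.4 FPKM in RKN, with SKLMS1 at 6.12, SKN at 3.31 and SKUT1 at 2.02, one of the 2 higher genes. Tetraspanins, which gather integrins in the membrane, included 9 of 21 genes 2-fold lower (42.9%, against 16.6%) and none higher. TSPAN13 was 0.14 FPKM in RKN against 71.9, 49.9 and 9.72 in SKLMS1, SKN and SKUT1. TSPAN5 was 0.195 FPKM in RKN, with SKLMS1 at 16.7, SKN at 24.3 and SKUT1 at 18.7. CD151, an integrin partner, was 86.7 FPKM in RKN against 311, 253 and 777 in SKLMS1, SKN and SKUT1. These 3 were lowest in RKN, while CD9 was 53.7 FPKM in RKN, with SKLMS1 at 5.01, SKN at 142 and SKUT1 at 177, the third of the lines.

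TGF-beta signals through TGFBR2 and TGFBR1 to SMAD2 and SMAD3, and its latent form is held by LTBP proteins. Of 21 genes, 11 were 2-fold lower in RKN (52.4%, against 16.6%), 1 was higher (4.76%, against 11.6%) and the median was -1.02. TGFBR2, the receptor that binds the ligand, was 0.864 FPKM in RKN against 21.3, 73.2 and 81.6 in SKLMS1, SKN and SKUT1. TGFBR1 was 6.99 FPKM in RKN, with SKLMS1 at 11.9, SKN at 9.95 and SKUT1 at 29.2, so the 2 receptors were both lowest in RKN, TGFBR1 by less. ENG, the coreceptor endoglin, was 0.109 FPKM in RKN against 10.8, 71.6 and 566 in SKLMS1, SKN and SKUT1, a difference of -6.15. SMAD7 and SKIL are targets of the pathway, and both were lowest in RKN. SMAD7, an inhibitor of the pathway, was 0.723 FPKM in RKN against 14.5, 2.78 and 38.7 in SKLMS1, SKN and SKUT1. SKIL, another inhibitor, was 0.993 FPKM in RKN, with SKLMS1 at 7.24, SKN at 7.23 and SKUT1 at 12.1. The exception was LTBP4, at 28.7 FPKM in RKN against 1.27, 30.7 and 1.59 in SKLMS1, SKN and SKUT1, where RKN and SKN were high.

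Growth factors and their receptors differed by family. Of 15 FGF ligands and receptors, 2 were 2-fold higher (13.3%, against 11.6% of all genes) and 4 lower (26.7%, against 16.6%). Their median was -0.59, or -0.21 without SKUT1. The symbol stem FGFR had 3 of 6 genes 2-fold higher and none lower, with a median of 0.32. That stem also takes in FGFR1OP2, which is not a receptor, so it does not stand for the receptors alone. MET, AXL, KIT and other receptor kinases had 3 of 13 higher (23.1%, against 11.6%) and 4 lower (30.8%, against 16.6%). Their median was -0.40, or 0.02 without SKUT1. Of 9 genes of the EGFR family and its ligands, 5 were 2-fold lower (55.6%, against 16.6%) and 2 higher (22.2%, against 11.6%). The median of -1.95 was -0.92 without SKLMS1. EGFR was 4.25 FPKM in RKN, with SKLMS1 at 21.9, SKN at 48.4 and SKUT1 at 15.1, lowest in RKN. HBEGF, a ligand of EGFR, was 1.35 FPKM in RKN against 12.4, 27.3 and 4.12 in SKLMS1, SKN and SKUT1, lowest in RKN too. ERBB2, a receptor without a ligand of its own, was 29.5 FPKM in RKN, with SKLMS1 at 11.9, SKN at 3.61 and SKUT1 at 25.95, the highest of the lines. Of 18 PDGF and VEGF genes 9 were 2-fold lower (50%, against 16.6%) and 2 higher (11.1%, against 11.6%). Of the 18, 5 lay 4-fold below the lowest other line, as 1.65% of all genes did. The neuropilins are coreceptors of VEGF, and both were lowest in RKN. NRP1 was 1.93 FPKM in RKN against 44.8, 52.5 and 72.8 in SKLMS1, SKN and SKUT1. NRP2 was 0.0151 FPKM in RKN, with SKLMS1 at 29.1, SKN at 45.2 and SKUT1 at 6.46. Among the ligands, VEGFA was 7.94 FPKM in RKN against 121, 77.97 and 55.5 in SKLMS1, SKN and SKUT1. VEGFC, which acts on lymphatic vessels, was 0.0158 FPKM in RKN, with SKLMS1 at 15.9, SKN at 6.93 and SKUT1 at 152. PDGFA was 0.433 FPKM in RKN against 9.29, 9.37 and 5.63 in SKLMS1, SKN and SKUT1, so RKN was the lowest line for these 3 ligands. PDGFC was 68.8 FPKM in RKN, with SKLMS1 at 15.7, SKN at 18.8 and SKUT1 at 20.8, the highest of the lines.

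**Figure D3:**
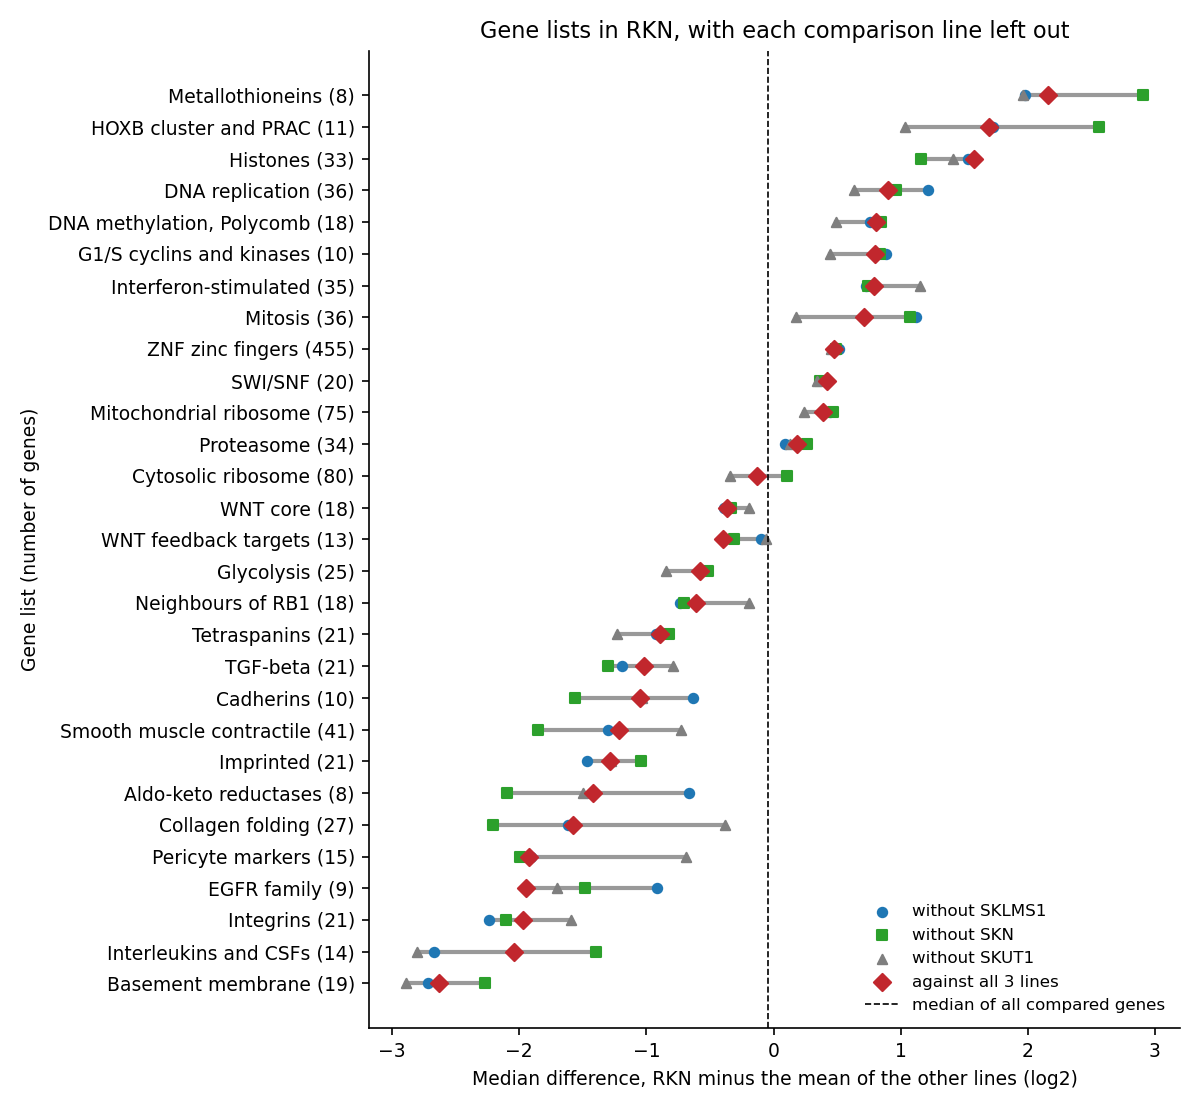
Median difference of RKN from the mean of the other lines (log2 of FPKM + 1) for 29 gene lists, against all 3 lines (red diamonds) and with each line left out in turn; grey bars span the 4 values, the number of genes is in brackets and the dashed line is the median of all genes. Metallothioneins, HOXB genes and histones lie highest and basement membrane genes lowest, and among these lists pericyte and collagen folding genes move most towards the dashed line without SKUT1.

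Smooth muscle cells contract through actin, myosin and regulators such as calponin and myosin light chain kinase, whose genes respond to SRF and myocardin. Of 41 contractile genes, 27 were 2-fold lower in RKN (65.9%, against 16.6%) and 1 was higher (2.44%, against 11.6%). RKN was the lowest line for 24 (58.5%, against 26.7%), and the median was -1.21. That median was -0.73 without SKUT1 and -1.85 without SKN. Against SKN alone it was -0.14, against SKLMS1 alone -1.34 and against SKUT1 alone -2.19, so RKN and SKN were both on the low side. MYLK, the light chain kinase, was 0.805 FPKM in RKN against 65.7, 11.8 and 31.5 in SKLMS1, SKN and SKUT1, lowest in RKN. TPM1, a tropomyosin, was 70.9 FPKM in RKN, with SKLMS1 at 1177, SKN at 138 and SKUT1 at 2205. FLNC, a filamin, was 2.14 FPKM in RKN against 16.6, 42.7 and 170.2 in SKLMS1, SKN and SKUT1. Both were lowest in RKN. The common markers ACTA2 and TAGLN were not the lowest in RKN, since SKN lay below it. ACTA2 was 84.7 FPKM in RKN, with SKLMS1 at 127, SKN at 1.37 and SKUT1 at 1085. TAGLN was 45.5 FPKM in RKN against 531, 5.82 and 3816 in SKLMS1, SKN and SKUT1. CSRP2, a LIM protein of smooth muscle, was the gene that was 2-fold higher, at 155 FPKM in RKN, with SKLMS1 at 158, SKN at 5.21 and SKUT1 at 27.3, as SKLMS1 was.

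LIM domain proteins of the actin cytoskeleton were the second lowest stem family. All 6 PDLIM genes compared were 2-fold lower in RKN and lowest in RKN, with a median of -2.33 and -2.14 to -2.71 when each line was left out. PDLIM5 was 0.37 FPKM in RKN against 18.9, 14.7 and 155 in SKLMS1, SKN and SKUT1. PDLIM3 was 0.0355 FPKM in RKN, with SKLMS1 at 9.82, SKN at 1.03 and SKUT1 at 5.06. PDLIM7 was 88.5 FPKM in RKN against 243, 162 and 205 in SKLMS1, SKN and SKUT1. Small heat shock proteins (HSPB), the third lowest family with -2.08, had a median of -0.25 without SKUT1 and -3.45 without SKN. HSPB6 was 0.26 FPKM in RKN, with SKLMS1 at 1.55, SKN at 0.565 and SKUT1 at 512. HSPB7 was 0.0221 FPKM in RKN against 0, 0.0147 and 378 in SKLMS1, SKN and SKUT1, so SKUT1 was the one high line.

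Regulators of the smooth muscle programme were not uniformly low. Of 28, 8 were 2-fold higher (28.6%, against 11.6% of all genes) and 5 lower (17.9%, against 16.6%). SRF itself was 17.9 FPKM in RKN, with SKLMS1 at 20.6, SKN at 9.999 and SKUT1 at 20.1, the third of the lines. ID3, an inhibitor of basic helix-loop-helix factors, was 738 FPKM in RKN against 156, 25.2 and 334 in SKLMS1, SKN and SKUT1, highest in RKN. Its relative ID4 was 17.9 FPKM in RKN, with SKLMS1 at 0.177, SKN at 0 and SKUT1 at 10.1, highest in RKN as well. TWIST1, a factor of mesenchyme, was 80.4 FPKM in RKN against 8.55, 6.79 and 10.6 in SKLMS1, SKN and SKUT1, the highest by far. BARX1, a homeobox gene of stomach mesenchyme, was 60.97 FPKM in RKN, with SKLMS1 at 0, SKN at 0 and SKUT1 at 0, listed at 0 outside RKN. GATA6, a factor of smooth muscle and endoderm, was 0.0249 FPKM in RKN against 3.52, 2.24 and 15.1 in SKLMS1, SKN and SKUT1, lowest in RKN.

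Glycolysis turns glucose into pyruvate and lactate, and HIF1A is a factor that raises many of its genes. Of 25 genes, 8 were 2-fold lower in RKN (32%, against 16.6%), none was higher and 13 were the lowest line (52%, against 26.7%), with a median of -0.58. SLC2A1, the glucose transporter GLUT1, was 12.3 FPKM in RKN, with SKLMS1 at 154, SKN at 33.3 and SKUT1 at 38.7, lowest in RKN. PFKP, the platelet type of phosphofructokinase, was 33.8 FPKM in RKN against 397, 138 and 148 in SKLMS1, SKN and SKUT1, lowest in RKN. PFKM, the muscle type, was 37.3 FPKM in RKN, with SKLMS1 at 17.6, SKN at 26.96 and SKUT1 at 22.6, highest in RKN. LDHA, which makes lactate, was 296 FPKM in RKN against 919.8, 1026 and 1351 in SKLMS1, SKN and SKUT1, lowest in RKN. SLC16A3, the MCT4 carrier that exports it, was 5.49 FPKM in RKN, with SKLMS1 at 153, SKN at 255 and SKUT1 at 151, lowest by a wide gap. LDHB, the other subunit, was 701 FPKM in RKN against 875, 1721 and 404 in SKLMS1, SKN and SKUT1, the third of the lines. HIF1A was 38.1 FPKM in RKN, with SKLMS1 at 254, SKN at 216 and SKUT1 at 312, lowest in RKN as well.

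The LDHA promoter is shown because the gene was lowest in RKN and holds several copies of ACGTG, the core of the element that HIF factors bind. It is the RefSeq sequence of GRCh38.p14 at chr11:18394313-18394562 on the plus strand, with ACGTG on either strand in capitals.
LDHA: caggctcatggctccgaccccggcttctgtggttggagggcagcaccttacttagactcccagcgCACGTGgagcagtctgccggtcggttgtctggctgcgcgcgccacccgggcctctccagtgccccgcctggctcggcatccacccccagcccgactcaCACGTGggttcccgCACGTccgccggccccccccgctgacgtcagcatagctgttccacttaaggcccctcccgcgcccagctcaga
The core occurred 5 times counted on both strands, with CACGTG read as a match on each. It was in the windows of 14 of 24 glycolysis genes with an entry (58.3%), 6 of the 8 that were 2-fold lower (75%) and 8 of the 16 that were not (50%). Of all windows 21.4% held it, and of compared genes 32.2%.

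Genes of the mitochondrial ribosome were slightly higher in RKN, with 37 of 75 the highest line (49.3%, against 28.4%). Of the 75, 6 were 2-fold higher and none lower, where 11.6% and 16.6% of all genes were. The median was 0.39, or 0.24 without SKUT1. MRPS2 was 84.4 FPKM in RKN against 43.9, 52.3 and 26.3 in SKLMS1, SKN and SKUT1. MRPL11 was 70.8 FPKM in RKN, with SKLMS1 at 31.4, SKN at 56.3 and SKUT1 at 20.5. Cytosolic ribosomal proteins had a median of -0.13, or 0.11 without SKN, and proteasome subunits had a median of 0.18 with no gene 2-fold apart in either direction. RPL22L1, a paralogue of RPL22, was 143 FPKM in RKN against 8.85, 37.99 and 46.2 in SKLMS1, SKN and SKUT1. RPL22 was 39.9 FPKM in RKN, with SKLMS1 at 61.9, SKN at 84.04 and SKUT1 at 53.01. RPL22L1 was highest and RPL22 lowest in RKN.

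Ubiquitin marks proteins for breakdown. UBB encodes a chain of ubiquitin units, and RPS27A fuses 1 unit to a ribosomal protein. UBB was 0.232 FPKM in RKN against 551, 608 and 718 in SKLMS1, SKN and SKUT1, a difference of -8.98 and the widest gap below the lowest other line among genes at 10 or more in each of them. RPS27A was 352 FPKM in RKN against 349, 714 and 275 in SKLMS1, SKN and SKUT1. RPS27A did not differ by 2-fold from the mean of the other lines. Ubiquitin repeats are nearly identical, so reads can be split between genes that hold them. Next to UBB, CENPV, a centromere protein, was 57.4 FPKM in RKN against 0.745, 15.1 and 4.31 in SKLMS1, SKN and SKUT1, highest in RKN. TRPV2, a channel gene on the other side, was 0 FPKM in RKN, with SKLMS1 at 0, SKN at 23.5 and SKUT1 at 39.01, listed at 0 in RKN and SKLMS1.

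Metallothioneins are small cysteine-rich proteins that bind zinc and copper, and MTF1 induces them through metal response elements. They formed the highest stem family, with a median of 2.16. Of 8 genes, 6 were 2-fold higher (75%, against 11.6%) and 1 lower (12.5%, against 16.6%). MT2A, the main form, was 3765 FPKM in RKN against 475, 2087 and 1567 in SKLMS1, SKN and SKUT1. MT1X was 792 FPKM in RKN, with SKLMS1 at 22.9, SKN at 90.2 and SKUT1 at 40.8, a difference of 4.14. Both were highest in RKN, as were MT1M and MT1F. MT1M was 288 FPKM in RKN against 1.11, 0.506 and 4.202 in SKLMS1, SKN and SKUT1. MT1F was 74.8 FPKM in RKN, with SKLMS1 at 5.68, SKN at 52.8 and SKUT1 at 4.18. MT1E was the exception and was listed at 0 in RKN, where SKLMS1 had 33.9, SKN 114 and SKUT1 78.9. Metallothionein genes are close copies side by side, so reads can be shared among them. The list for zinc and copper transport and the metal response held 21 compared genes. Of these, 1 was 2-fold higher (4.76%, against 11.6% of all genes) and 3 lower (14.3%, against 16.6%). The median of -0.34 was -0.04 without SKUT1. SLC30A1, a zinc exporter that MTF1 also induces, was 14.9 FPKM in RKN against 3.67, 5.97 and 32.9 in SKLMS1, SKN and SKUT1, second to SKUT1. MTF1 was 3.88 FPKM in RKN, with SKLMS1 at 2.65, SKN at 4.002 and SKUT1 at 4.15, the third of the lines.

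The promoters of MT1X and MT2A are shown as those of 2 highest genes in RKN with repeats of the metal response core. They are RefSeq sequences of GRCh38.p14 at chr16:56682220-56682469 on the plus strand and chr16:56608334-56608583 on the plus strand, with TGCACNC or TGCGCNC on either strand in capitals.
MT1X: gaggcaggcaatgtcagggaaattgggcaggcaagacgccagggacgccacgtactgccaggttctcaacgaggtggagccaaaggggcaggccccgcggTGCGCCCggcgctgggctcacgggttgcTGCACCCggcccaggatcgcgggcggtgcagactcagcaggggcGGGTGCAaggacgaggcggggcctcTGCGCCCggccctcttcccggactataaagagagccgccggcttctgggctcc
MT2A: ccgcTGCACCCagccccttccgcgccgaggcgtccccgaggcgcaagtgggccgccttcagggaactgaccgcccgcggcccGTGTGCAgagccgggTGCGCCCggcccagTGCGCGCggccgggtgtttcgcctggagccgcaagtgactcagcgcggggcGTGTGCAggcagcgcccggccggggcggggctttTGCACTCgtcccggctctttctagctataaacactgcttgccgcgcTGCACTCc
The core occurred 4 times in MT1X and 7 times in MT2A. It is a short word, and 29.6% of all windows and 46.3% of those of compared genes held it at least once.

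Aldo-keto reductases reduce aldehydes, ketones and steroids. Of 8 compared, 5 were 2-fold lower (62.5%, against 16.6%) and none higher, with a median of -1.42 that was -0.67 without SKLMS1. AKR1B1, aldose reductase, was 0.0746 FPKM in RKN against 1084, 364 and 73.7 in SKLMS1, SKN and SKUT1, lowest by a wide gap. AKR1B10, its neighbour, was 0 FPKM in RKN, with SKLMS1 at 7.72, SKN at 0.085 and SKUT1 at 0.294, high in SKLMS1 only. AKR1C3, which acts on steroids and prostaglandins, was 1.18 FPKM in RKN against 100.04, 15.3 and 21.9 in SKLMS1, SKN and SKUT1, lowest in RKN. AKR1A1, a member elsewhere in the genome, was 47.2 FPKM in RKN, with SKLMS1 at 83.3, SKN at 44.4 and SKUT1 at 69.7, the third of the lines. The AKR1C genes are close copies. In the mTOR list, 3 of 30 genes were 2-fold higher (10%, against 11.6%) and 5 lower (16.7%, against 16.6%), close to the shares of all genes. DDIT4L, an inhibitor of mTOR, was 121 FPKM in RKN against 0.227, 1.73 and 0.656 in SKLMS1, SKN and SKUT1, high in RKN alone. DDIT4, its relative, was 79.7 FPKM in RKN, with SKLMS1 at 407, SKN at 119 and SKUT1 at 26.6, the third of the lines. PIK3R3, a regulatory subunit of PI3 kinase, was 33.3 FPKM in RKN against 3.83, 2.399 and 1.31 in SKLMS1, SKN and SKUT1, highest in RKN.

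HOX genes are expressed in blocks that record position along the body axis, and the 4 clusters differed in RKN. In HOXB with PRAC, 10 of 11 genes were 2-fold higher (90.9%, against 11.6%), among them PRAC and HOXB-AS5, listed at 0 in the other lines, and the median was 1.69. That median was 1.03 without SKUT1 and 2.56 without SKN. Against SKN alone it was 0.06, with 6 of 11 genes above SKN. HOXB13, at the posterior end of the cluster, was 9.49 FPKM in RKN, with SKLMS1 at 0.882, SKN at 0.0139 and SKUT1 at 0. PRAC, the gene beside it, was 87.7 FPKM in RKN against 0, 0 and 0 in SKLMS1, SKN and SKUT1. HOXB7, in the middle of the cluster, was 22.02 FPKM in RKN, with SKLMS1 at 10.9, SKN at 36.6 and SKUT1 at 0.282, second to SKN. The stretch from HOXB9 to HOXB13 was highest in RKN gene after gene. In HOXA, 5 of 10 genes were 2-fold lower (50%, against 16.6%) and 1 higher (10%, against 11.6%). HOXA3 was 0.281 FPKM in RKN against 11.5, 6.22 and 0.695 in SKLMS1, SKN and SKUT1, lowest in RKN. HOXA9 was 0.256 FPKM in RKN, with SKLMS1 at 1.297, SKN at 0.319 and SKUT1 at 9.53, lowest in RKN too. HOXA13 was 1.31 FPKM in RKN against 1.29, 0.171 and 0.0531 in SKLMS1, SKN and SKUT1, highest by a small margin. HOXC13 was 5.64 FPKM in RKN, with SKLMS1 at 0, SKN at 0.5 and SKUT1 at 0.0746. HOXD13 was 1.55 FPKM in RKN against 0.138, 1.06 and 0 in SKLMS1, SKN and SKUT1. RKN was thus the highest line for the gene numbered 13 in each of the 4 clusters, but only narrowly and at low levels in HOXA and HOXD. Among 48 homeobox genes outside HOX, 14 were 2-fold higher (29.2%, against 11.6% of all genes) and 10 lower (20.8%, against 16.6%). SHOX2, a limb and heart factor, was 0.143 FPKM in RKN, with SKLMS1 at 4.997, SKN at 6.97 and SKUT1 at 7.41, lowest in RKN.

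Imprinted genes are read from 1 parental copy. Of 21, 14 were 2-fold lower in RKN (66.7%, against 16.6%) and 1 was higher (4.76%, against 11.6%), with a median of -1.29. SGCE, epsilon-sarcoglycan, was 0.357 FPKM in RKN against 63.4, 44.99 and 67.8 in SKLMS1, SKN and SKUT1, lowest in RKN. PEG10, its divergent neighbour, was 3.497 FPKM in RKN, with SKLMS1 at 241, SKN at 11.5 and SKUT1 at 2.39, with SKLMS1 alone far above. MEG3, a long noncoding RNA, was 0 FPKM in RKN against 3.37, 38.6 and 8.35 in SKLMS1, SKN and SKUT1, listed at 0 in RKN. ZDBF2, a zinc finger gene, was 0.00298 FPKM in RKN, with SKLMS1 at 2.29, SKN at 2.91 and SKUT1 at 2.52, lowest in RKN. IGF2R, a receptor that clears IGF2, was 3.96 FPKM in RKN against 17.9, 26.99 and 50.7 in SKLMS1, SKN and SKUT1, lowest in RKN. SNRPN, a splicing protein, was 60.2 FPKM in RKN, with SKLMS1 at 54.4, SKN at 67.01 and SKUT1 at 94.2, close to SKLMS1 and SKN, so the group was not uniformly low. NLRP2 was the higher gene, at 9.19 FPKM in RKN against 0.0196, 0.143 and 0.0247 in SKLMS1, SKN and SKUT1.

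Neighbouring loci were then compared, using the order of genes in RefSeq on GRCh38.p14 for 13394 compared genes. A run was at least 3 neighbours that were all outside the other 3 lines on the same side and 2-fold from their mean. Lower runs numbered 87 with 302 genes, which was 17.3% of the 1748 genes meeting the rule, and 26 runs had 4 or more genes. Higher runs numbered 57 with 189 genes, 13.8% of 1374, and 13 had 4 or more. The rule was met by 13% of all compared genes on the lower side and 10.2% on the higher, and no chance number of runs was computed. The longest runs in either direction had 7 genes.

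The longest lower runs were BCAT1 to ITPR2 and PARP8 to NDUFS4. In the first, BCAT1, which breaks down branched-chain amino acids, was 3.14 FPKM in RKN, with SKLMS1 at 22.8, SKN at 126 and SKUT1 at 42.1. ITPR2, a calcium channel of the endoplasmic reticulum, was 0.189 FPKM in RKN, with SKLMS1 at 6.39, SKN at 14.8 and SKUT1 at 5.36. SKN was the highest line for both. SSPN, a member of the dystrophin complex, was 0.0357 FPKM in RKN against 9.17, 7.41 and 9.64 in SKLMS1, SKN and SKUT1, with the other lines alike. A further lower run, KLHL42 to TMTC1, lay close by. Its gene ERGIC2, of the secretory pathway, was 32.4 FPKM in RKN, with SKLMS1 at 35.9, SKN at 168 and SKUT1 at 48.9, with SKN high and RKN close to SKLMS1. The second run held ITGA1 and ITGA2, of the low integrin family. PELO, which rescues stalled ribosomes, was 5.76 FPKM in RKN against 31.7, 20.1 and 33.3 in SKLMS1, SKN and SKUT1. MOCS2, of molybdenum cofactor synthesis, was 13.6 FPKM in RKN, with SKLMS1 at 61.02, SKN at 74.8 and SKUT1 at 58.5. NDUFS4, a subunit of respiratory complex I, was 60.1 FPKM in RKN against 149, 178 and 103 in SKLMS1, SKN and SKUT1. HIF1A stood in a lower run as well. SNAPC1, of small nuclear RNA transcription, was 9.45 FPKM in RKN, with SKLMS1 at 89.4, SKN at 54.1 and SKUT1 at 16.1. PRKCH, a protein kinase C, was 0.17 FPKM in RKN against 3.84, 6.36 and 1.101 in SKLMS1, SKN and SKUT1.

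**Figure D4:**
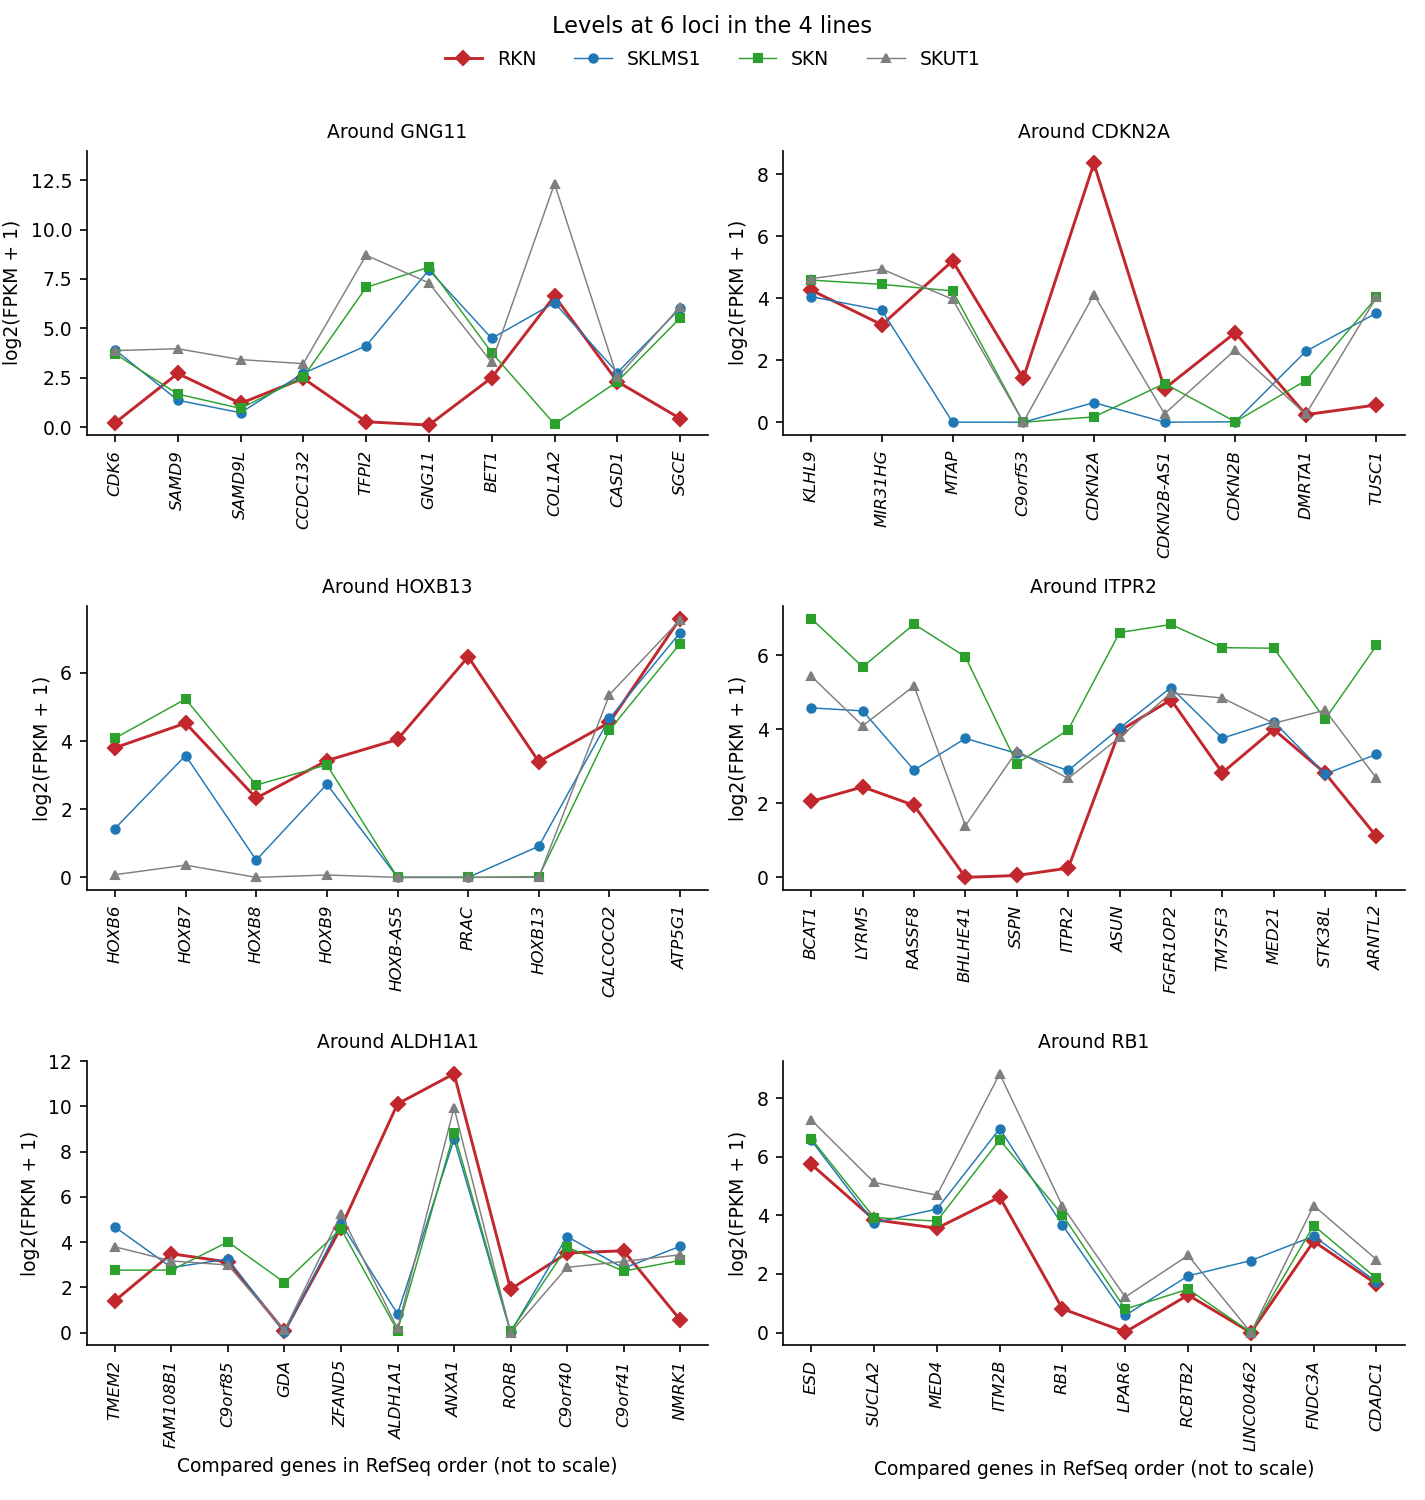
Levels as log2(FPKM + 1) of compared genes around 6 loci, in RefSeq order with 2 genes not shown, and not to scale, with RKN in red and the other lines in blue, green and grey. RKN drops at CDK6, TFPI2, GNG11 and SGCE around GNG11 but not at COL1A2 and CASD1, peaks at CDKN2A and at the end of the HOXB cluster, and stays below the other lines over the first genes around ITPR2.

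The locus of GNG11 was patchy rather than uniformly low. TFPI2, a protease inhibitor of the matrix beside GNG11, was 0.212 FPKM in RKN, with SKLMS1 at 16.3, SKN at 134 and SKUT1 at 416, lowest in RKN. BET1, of the secretory pathway, on its other side, was 4.69 FPKM in RKN against 21.6, 12.7 and 8.71 in SKLMS1, SKN and SKUT1, lowest by less. COL1A2, a chain of type I collagen, followed with 98.3 FPKM in RKN, with SKLMS1 at 77.5, SKN at 0.113 and SKUT1 at 5096, second in RKN. CASD1, which modifies sialic acids, was 3.96 FPKM in RKN against 5.77, 3.95 and 4.73 in SKLMS1, SKN and SKUT1, close to the other lines. SGCE, described above, came next, so low genes alternated with genes at the level of other lines. At ALDH1A1, the neighbour ANXA1, annexin A1, was 2791 FPKM in RKN, with SKLMS1 at 372, SKN at 456 and SKUT1 at 988. RORB, a nuclear receptor and the next compared gene, was 2.78 FPKM in RKN against 0.00954, 0.0347 and 0 in SKLMS1, SKN and SKUT1, so all 3 were highest in RKN. ZFAND5, on the other side, was 23.99 FPKM in RKN, with SKLMS1 at 27.5, SKN at 22.997 and SKUT1 at 36.8, the third of the lines.

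Around CDKN2A, MTAP, an enzyme of methionine salvage, was 35.9 FPKM in RKN against 0, 17.9 and 14.6 in SKLMS1, SKN and SKUT1, highest in RKN and listed at 0 in SKLMS1. TUSC1, further along, was 0.471 FPKM in RKN, with SKLMS1 at 10.5, SKN at 15.3 and SKUT1 at 15.4, lowest in RKN. At RB1, the neighbour ITM2B, a membrane protein, was 23.7 FPKM in RKN against 123, 94.1 and 455 in SKLMS1, SKN and SKUT1, lowest in RKN. MED4, a Mediator subunit and the next gene, was 10.8 FPKM in RKN, with SKLMS1 at 17.6, SKN at 12.96 and SKUT1 at 24.8, lowest by less. Over 18 neighbours of RB1 including RB1, 3 were 2-fold lower (16.7%), close to the 16.6% of all genes. RKN was the lowest line for 11 (61.1%, against 26.7%), and the median was -0.61, or -0.19 without SKUT1. IL18 stood in a higher run of 4 genes. TIMM8B, a mitochondrial import factor, was 98.7 FPKM in RKN, with SKLMS1 at 15.6, SKN at 26.6 and SKUT1 at 58.1. SDHD, a subunit of succinate dehydrogenase, was 69.2 FPKM in RKN against 14.9, 40.5 and 47.1 in SKLMS1, SKN and SKUT1. BCO2, which cleaves carotenoids, was 2.66 FPKM in RKN, with SKLMS1 at 0.0136, SKN at 0.111 and SKUT1 at 0. The glucagon gene GCG stood beside DPP4, the peptidase that inactivates its product GLP-1, and both were highest in RKN. DPP4 was 46.5 FPKM in RKN against 5.35, 2.69 and 20.4 in SKLMS1, SKN and SKUT1. GCG was 84.4 FPKM in RKN, with SKLMS1 at 0, SKN at 0.0362 and SKUT1 at 0.

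Wider stretches were compared in windows of 51 neighbouring compared genes. Over 12244 windows the median of the medians was -0.04, and 95% lay between -0.66 and 0.53. The lowest, from PLBD1 to CAPRIN2, holds the run of ITPR2 and had a median of -1.08, with 29 of 51 genes 2-fold lower and 32 the lowest line. It was -0.84 without SKN and -1.58 without SKLMS1. RPS23 to MAN2A1 followed with -0.996 and RAI14 to ESM1 with -0.93. The highest window ran from YJEFN3 to TDRD12, with a median of 0.83, 21 genes 2-fold higher and 35 the highest line, and is rich in ZNF genes. PPP5C to PLEKHA4 followed with 0.76, and HIST1H2BD to IER3, with the histone cluster, had 0.66.

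Values of sequence composition moved with the difference. Of 12643 compared genes with a GENCODE transcript (92.2%), cut into 5 equal bins by GC content, the lowest bin had a median difference of -0.19 in RKN and the highest bin 0.25. The share 2-fold higher went from 6.72% to 18.9%. The other lines went from -0.05 to -0.08 in SKLMS1, 0.03 to -0.18 in SKN and 0.12 to -0.17 in SKUT1, each against its own other 3. By transcript length the medians of RKN went from 0.06 in the shortest of 5 bins to -0.21 in the longest. The part of GC content or length in the results was not tested.

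**Figure D5:**
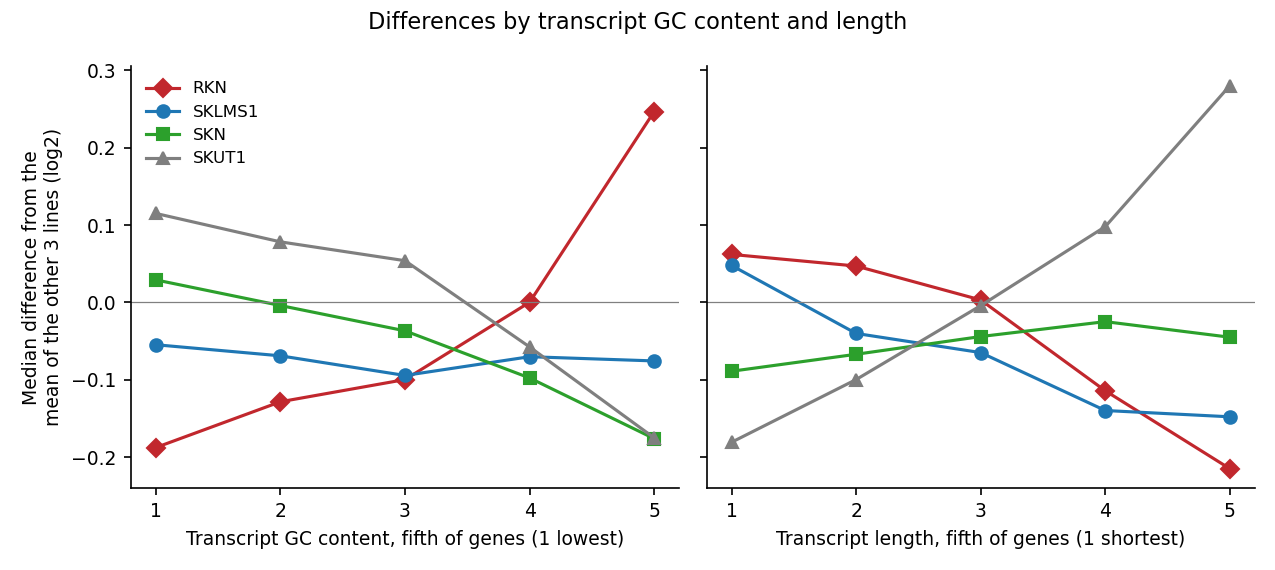
Median difference of each line from the mean of its other 3 lines (log2 of FPKM + 1) in 5 equal bins of transcript GC content (left) and transcript length (right), from 12643 genes. RKN goes from -0.19 to 0.25 with GC content, the widest span of the 4 lines, and from 0.06 to -0.21 with length, where SKUT1 goes the other way.

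List medians were also taken within the bins of GC content. ZNF transcripts had a median GC content of 43.3% against 48.8% for all genes, and within each bin of GC content their median was above that of the other genes. In the lowest bin it was 0.66 for 141 ZNF genes against -0.23 for the other 2388, and in the highest 0.34 for 52 against 0.24 for 2477. Taken relative to the median of the GC bin of each gene, the list medians were 0.97 for DNA replication, 0.60 for ZNF genes, 0.91 for interferon-stimulated genes, -1.83 for integrins, -2.88 for basement membrane genes and -1.42 for smooth muscle genes. Each was on the same side as the plain median.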

How the data were processed

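One library of poly(A) RNA per line was compared. The authors deposited 1 table of FPKM, with a column for each of the 4 lines; STAR, Cufflinks and hg19 are named per the submitters' processing notes, without versions. The annotation, the strand setting and any filter of that step were not given in the sources used here. Of 23610 rows, 28 whose gene name had become a spreadsheet date and 5 with error cells were dropped, leaving 23577 genes. FPKM were used as log2(FPKM + 1) for genes at 1 or more in any line, and no test was run, since each line has 1 library. Symbols of 97.7% of the compared genes matched RefSeq (GRCh38.p14), which gave gene order and promoter sequences, and GENCODE 29 gave GC content and length. FPKM carry no counts, so depth is known only relative to RKN. Alternatives were other pseudocounts, filters, gap sizes, scalings, the median of the other lines, and each line left out. The members and lists were chosen with earlier results of these data known. Genes were named by a rule: the 4 markers, the 30 widest gaps on either side, all members of short lists, and the 6 largest differences of each longer list, longest run and extreme stem family. Outside that rule, and chosen after their values were seen, were ABCC9, ACTA2, AURKA, BMI1, CD9, CSF3, CSPG4, CSRP2, CTNNB1, DDIT4, DES, E2F1, GBP2, GNG5, HIST1H2BH, IFI27, ITGA7, ITGAV, ITGB1, KCNJ8, LAMA5, LAMC1, LAMC3, LDHB, LGR5, LTBP4, MED4, MTF1, MYH11, NID1, NOTCH3, OAS2, OAS3, PDGFC, PFKM, PLOD1, PLOD3, RBL1, RBL2, RNF43, RPL22, SERPINH1, SKIL, SLC30A1, SNRPN, SRF, TAGLN, TGFBR1, TUSC1, ZDBF2, ZFAND5, ZNF107, ZNF138, ZNF253, ZNF273, ZNF469, ZNF521, ZNF626, ZNF680, ZNF682, ZNF90, ZNF93 and ZNRF3. Some genes that the rule names are not reported here. Scripts were tested on simulated data and ran in Python 3.11.15 with numpy 2.4.6, pandas 2.3.3 and matplotlib 3.10.9.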

Additional observations from a re-analysis of the deposited data

How the results depend on the processing

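Without replicates, no difference here has an error, and 4 libraries stand for 4 lines; depth limits mostly the genes near 0. No paired analysis was possible because each line has 1 library. Of 85 recomputed counts and medians over all genes, 60 stayed within 1.5 times or the same range and 25 moved. The 1585 genes 2-fold above became 395 at 4-fold, 2807 under TPM and 628 with a pseudocount of 5. The 2277 genes 2-fold below became 794 at 4-fold and 1256 with a pseudocount of 5. The 188 genes 4-fold above the highest other line became 85 at 8-fold, 318 under TPM, 400 with a pseudocount of 0.1, 67 with a pseudocount of 5, and 91 among genes above 0 in all lines, an alternative chosen after seeing the data. The 226 genes 4-fold below became 88 at 8-fold, 526 and 69 with those pseudocounts, 377 without SKLMS1, 430 without SKN and 346 without SKUT1. The median over all genes was 0.24 under TPM and 0.071 under quantile normalization. Higher runs, 57 in all, became 155 under TPM, 34 with no filter, and 87 and 6 with pseudocounts of 0.1 and 5. Lower runs, 87 in all, became 46 with no filter, and 144 and 20 with those pseudocounts. Leaving short RNAs out of the gene order, also chosen after seeing the data, changed neither count of runs by more than 1.5 times. Of 660 values of the 55 list medians, 557 stayed within 0.5 of the main value, 96 moved by more and 7 changed sign among the 33 lists with a median of at least 0.5. Of the values counted as within 0.5 or moved, 38 in 13 of the 22 lists with a smaller median also changed sign. Endothelial markers had a median of 0.085 without SKN and 0.0043 without SKUT1. Fibroblast markers had a median of 0.00028 against the median of the other lines. Neural and glial markers had 0.11 against the median of the other lines, 0.41 at a minimum FPKM of 5 and 0.39 without SKUT1. Secreted WNT antagonists had 0.021 with no filter. The cause of these changes was not tested.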

Other observations

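Proteins around the cell other than the laminins and integrins were also lower in RKN. Of 26 matricellular genes, 21 were 2-fold lower (80.8%, against 16.6% of all genes), and the median of -2.76 was -1.40 without SKUT1. CTGF and CYR61, which YAP and TEAD factors also induce, were both lowest in RKN. CTGF was 4.03 FPKM in RKN against 80.3, 56.9 and 3279 in SKLMS1, SKN and SKUT1. CYR61 was 20.4 FPKM in RKN, with SKLMS1 at 259, SKN at 85.6 and SKUT1 at 565. FBN1, the fibrillin of microfibrils, was 0.353 FPKM in RKN against 18.4, 17.6 and 729.7 in SKLMS1, SKN and SKUT1, lowest in RKN. Of 26 ADAM and ADAMTS proteases, 15 were 2-fold lower (57.7%, against 16.6%) and 2 higher (7.69%, against 11.6%), with a median of -1.22. ADAMTS1, which cleaves proteoglycans, was 0.0466 FPKM in RKN, with SKLMS1 at 16.6, SKN at 8.88 and SKUT1 at 707, lowest in RKN. ADAM12 was 0.0956 FPKM in RKN against 10.8, 3.95 and 90.5 in SKLMS1, SKN and SKUT1, and ADAM19 was 0.604 FPKM in RKN, with SKLMS1 at 12.1, SKN at 18.01 and SKUT1 at 10.6, both lowest in RKN.

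Annexins bind membranes when calcium is present. Of 9 compared, 7 were lowest in RKN (77.8%, against 26.7%), with a median of -1.05, while ANXA1 beside ALDH1A1 was the highest gene of the family. ANXA5 was 145 FPKM in RKN against 458, 425 and 1719 in SKLMS1, SKN and SKUT1, and ANXA6 was 61.6 FPKM in RKN, with SKLMS1 at 167, SKN at 353 and SKUT1 at 280.2. Among developmental factors, 4 of 6 T-box genes were 2-fold lower (66.7%, against 16.6% of all genes) and 1 was higher (16.7%, against 11.6%). TBX15 was 0 FPKM in RKN against 6.901, 4.53 and 19.3 in SKLMS1, SKN and SKUT1, and TBX3 was 3.86 FPKM in RKN, with SKLMS1 at 12.9, SKN at 13.5 and SKUT1 at 9.84, both lowest in RKN. No SOX gene of 8 was 2-fold lower (against 16.6%) and 2 were higher (25%, against 11.6%). SOX4 was 28.4 FPKM in RKN against 34.2, 6.38 and 3.62 in SKLMS1, SKN and SKUT1, second to SKLMS1. Of 30 p53 pathway genes, 4 were 2-fold higher (13.3%, against 11.6%) and 5 lower (16.7%, against 16.6%), close to the shares of all genes. FAS, a death receptor that p53 induces, was 37.9 FPKM in RKN, with SKLMS1 at 3.72, SKN at 2.69 and SKUT1 at 40.5, high in RKN and SKUT1.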
